A study of Canis lupus familiaris with 51 samples.

Results

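Mast cells are made from blood progenitors under a small set of transcription factors. GATA1 and GATA2 bind GATA sites in the promoters of mast cell genes, MITF switches on the genes of granule proteases and of the receptor KIT, TAL1 works in complexes with the GATA factors, and SPI1, RUNX1, CEBPA and IKZF1 steer the choice between myeloid, mast cell and lymphoid fates. STAT5A and STAT5B carry the survival signal from KIT and from cytokine receptors to the nucleus. These 10 genes were looked up by gene name or description among the 43603 probes of an Agilent canine array on which 51 canine cutaneous mast cell tumors (MCTs) had been measured, 1 tumor per array. Of the 10 genes, 7 had a probe and were described by 9 probes in all: GATA1, MITF (3 probes), SPI1, RUNX1, STAT5A, STAT5B and IKZF1. No probe was found by name, description or gene ID for GATA2, TAL1 or CEBPA, so the 3 are not analysed here.

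The dogs carried spontaneous tumors, sampled from the center of the mass at surgery. The 18 reference tumors had been chosen in the study by histological grade and mitotic index: 5 reference undifferentiated MCTs of high grade and 13 reference differentiated MCTs of low grade. The other 33 tumors had been assigned by the study from 13 other genes of the same arrays, 7 as predicted undifferentiated and 26 as predicted differentiated, so that these classes are not independent of the arrays. The dogs were 3 to 14 years old, 30 were labeled female and 19 male, sex was missing for 2, and breeds were mixed. Undifferentiated tumors came from 7 males and 4 females, and differentiated tumors from 12 males and 26 females. Sex was thus unbalanced between the classes, and a model without sex cannot separate sex from class. No healthy tissue was among the samples, and each dog gave 1 tumor. The sample labels name the case and carry no class, so each class was looked up in the study by case name: the reference classes in its list of reference cases and the predicted ones in its plot of class probabilities. One reference undifferentiated tumor, LM0, has no case of that name there and was matched to its class by elimination.

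Mast cell markers were bright in these tumors. Of 22 mast cell markers, 14 had a probe, and 13 of these were well above background on every array, among them KIT, chymase (CMA1) and the IgE receptor chains FCER1A and MS4A2. CTSG was well above background on 36 of 51 arrays. The summed signal of the 14 markers was between 18.40 and 19.65 on the log2 scale in reference undifferentiated, 18.26 and 19.36 in reference differentiated, 17.81 and 19.47 in predicted undifferentiated and 18.19 and 19.68 in predicted differentiated MCTs. On the mean standardized level of the 14 markers, 2 predicted undifferentiated tumors stood apart at the low end, T114 at -1.86 and T77 at -1.80, and the next tumor lay at -1.07. Several class differences of MITF and RUNX1 and several correlations of GATA1, IKZF1 and MITF are given with and without them, but not all.

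Each probe is a stretch of 60 bases that a labeled transcript has to pair with, so the letters fix which part of a gene was measured. The 5 probes shown here are those of the genes that differed between classes in some comparison, printed in lower case. Positions are those in the array files, whose genome build is not named there.
MITF probe A, chromosome 20, 24854219 to 24859405, minus strand: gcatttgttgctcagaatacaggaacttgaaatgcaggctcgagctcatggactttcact
MITF probe B, chromosome 20, 24883615 to 24883674, minus strand: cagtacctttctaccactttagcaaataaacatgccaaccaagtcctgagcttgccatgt
MITF probe C, chromosome 20, 24939653 to 24939712, minus strand: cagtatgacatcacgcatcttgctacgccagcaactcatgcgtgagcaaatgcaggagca
RUNX1, chromosome 31, 32372614 to 32372673, minus strand: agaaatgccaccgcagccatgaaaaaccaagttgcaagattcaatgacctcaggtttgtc
STAT5B, chromosome 9, 24027783 to 24027842, plus strand: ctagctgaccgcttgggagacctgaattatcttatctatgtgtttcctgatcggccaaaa

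The 60 bases of MITF probe A lie within a span of 5187 bases of the chromosome, so they cross an intron, while probes B and C match 60 unbroken bases each. The 3 probes sit in separate parts of the gene, in the order C, B, A along the direction of transcription. Probe C was found by the full protein name in its description and not by the symbol. MITF is transcribed from several promoters into isoforms, and which of them each probe reads was not tested.

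The probes of GATA1 and IKZF1 are shown because both proteins contain zinc fingers. Whether the marked stretches belong to fingers that bind DNA was not tested. Capitals mark TGCNNNNNNTGC, the codons of a pair of cysteines with 2 residues between them, which hold the zinc ion.
GATA1, chromosome X, 41946147 to 41946782, plus strand: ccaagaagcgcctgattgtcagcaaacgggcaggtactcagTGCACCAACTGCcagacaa
IKZF1, chromosome 18, 4737065 to 4737124, plus strand: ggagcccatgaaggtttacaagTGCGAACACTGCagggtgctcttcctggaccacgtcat

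The motif was found, on either strand, in 1219 of the 43603 probes of the array (2.8%). The letters describe the probe and say nothing about binding. All 9 probes were well above background on all 51 arrays, so no level had to be given as a bound. Spots flagged by the scanner software as outliers were left out, which removed 8 arrays for IKZF1, 3 each for MITF probes A and B, 1 each for GATA1, MITF probe C and RUNX1, and no array for SPI1, STAT5A and STAT5B. Levels are log2 values after normalization between arrays, and levels of different probes are not set against each other.

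**Figure D1:**
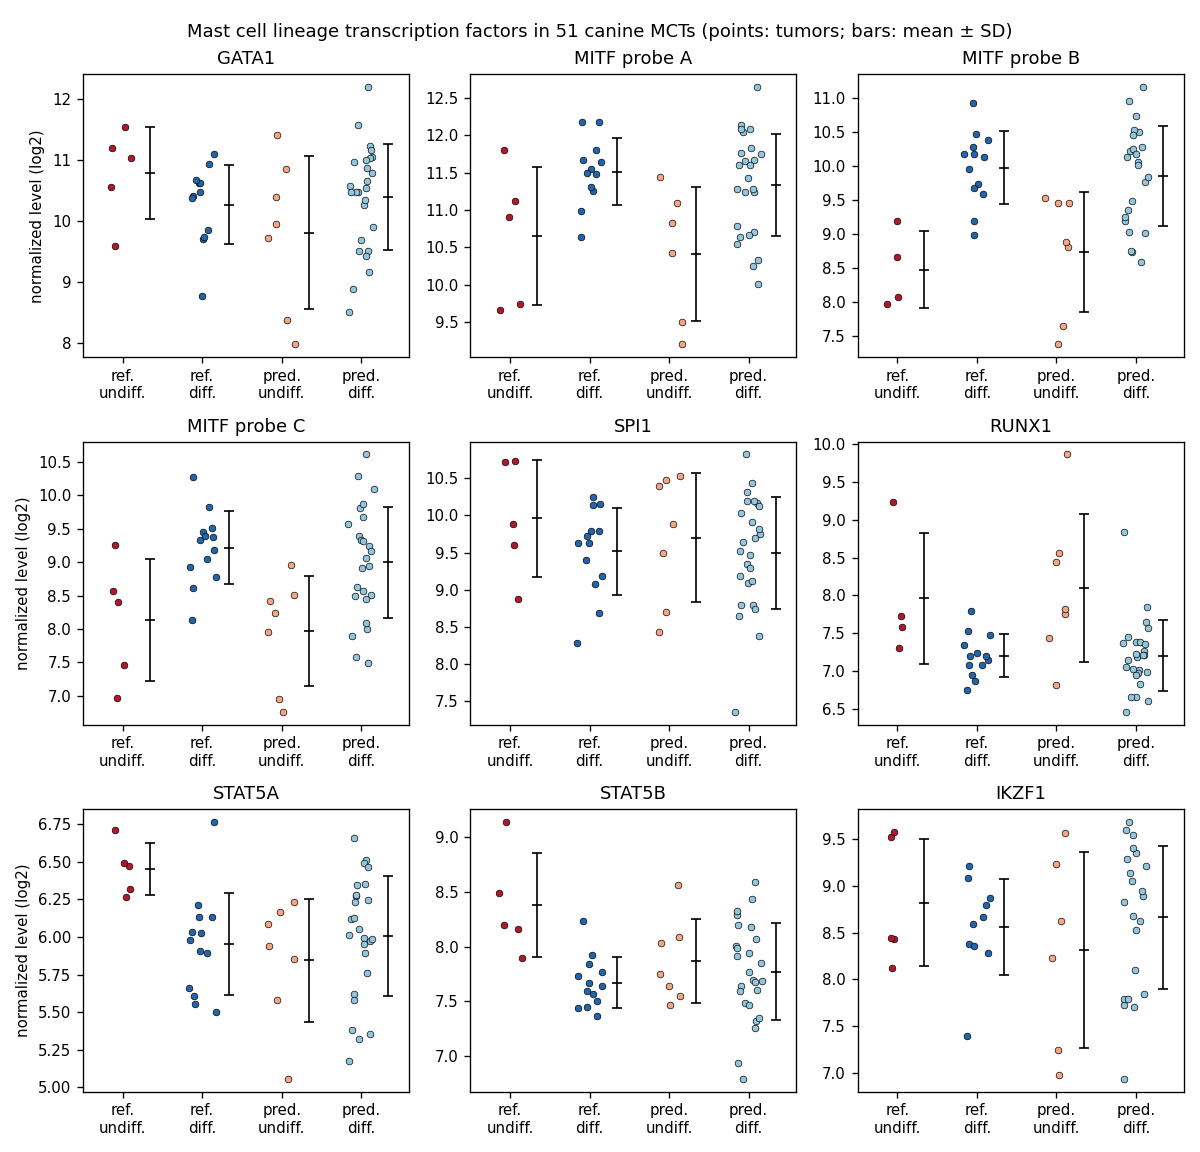
Normalized level on the log2 scale (vertical axis) of the 9 probes in the 4 groups of MCTs (horizontal axis; ref., reference; pred., predicted; undiff., undifferentiated; diff., differentiated). Points are tumors and bars the mean ± SD; for MITF probe B, the 4 reference undifferentiated tumors lie between 7.97 and 9.20 and 11 of 13 reference differentiated tumors lie above the highest of them.

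The first comparison asked how the factors differed between histologically chosen undifferentiated and differentiated MCTs. MITF, the master regulator of mast cells and melanocytes, was lower in the undifferentiated reference tumors by its probe B, and STAT5B was higher. Calls were made in limma at a Benjamini-Hochberg adjusted p under 0.05 over all probes of the array. A stricter rule asked for a 2-fold difference or more together with an adjusted p under 0.01. Of the 9 probes, 1 was lower (3.54% of all probes) and 1 was higher (4.15%) under the first rule, together 2 of 9 against 7.69% of all probes. Under the stricter rule 1 of 9 was called, against 1.8% of all probes.

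MITF probe B read 8.66 in T9, 7.97 in T57, 9.20 in T73 and 8.08 in LM0, and the spot of T90 was flagged and left out. The 13 reference differentiated tumors ran from 8.98 through a median of 10.14 to 10.93. Of the 4 undifferentiated tumors, 3 lay below the lowest differentiated tumor, and all 4 lay below the differentiated median. The mean was 8.48 ± 0.57 (SD, n = 4) against 9.97 ± 0.53 (SD, n = 13), a 2.82-fold lower level in undifferentiated MCTs (log2 difference -1.49, 95% confidence interval -2.13 to -0.86, adjusted p = 0.00614, limma). With flagged spots kept, so that T90 entered, it was -1.15 (adjusted p = 0.0384). In whole tumor pieces, fewer cells that contain a transcript and less transcript per cell cannot be told apart.

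The other MITF probes were lower on average too, without reaching the threshold. Probe A read 10.91 in T9, 9.66 in T57, 11.12 in T73, 11.80 in T90 and 9.74 in LM0, and from 10.64 through 11.53 to 12.18 in 12 differentiated tumors (log2 difference -0.87 ± 0.31 (SE), adjusted p = 0.103, limma). Probe C read 8.57 in T9, 6.97 in T57, 8.40 in T73, 9.25 in T90 and 7.46 in LM0, and from 8.13 through 9.34 to 10.28 in 13 differentiated tumors (log2 difference -1.09 ± 0.33 (SE), adjusted p = 0.0531, limma). T57 and LM0 were the lowest undifferentiated tumors on all 3 probes, and T90 was the highest on probes A and C, where its level lay among the differentiated tumors. Without T90, the difference was -1.16 by probe A (adjusted p = 0.0285) and -1.37 by probe C (adjusted p = 0.0195). Without T57 it was -0.62 by probe A (adjusted p = 0.222) and -0.80 by probe C (adjusted p = 0.126), and without LM0 it was -0.64 (adjusted p = 0.266) and -0.92 (adjusted p = 0.147). Among the differentiated tumors, leaving out T50 brought probe C to -1.18 (adjusted p = 0.0326).

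STAT5B, which is activated downstream of KIT, read 8.20 in T9, 9.14 in T57, 8.16 in T73, 7.90 in T90 and 8.49 in LM0. The 13 reference differentiated tumors ran from 7.36 through 7.64 to 8.23. Every undifferentiated tumor lay above the differentiated median, 2 of 5 lay above the highest differentiated tumor, and the groups overlapped between 7.90 and 8.23. The level was 1.63-fold higher in undifferentiated MCTs (log2 difference 0.71, interval 0.36 to 1.06, adjusted p = 0.0147, limma).

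Its paralog STAT5A read 6.32 in T9, 6.27 in T57, 6.47 in T73, 6.49 in T90 and 6.71 in LM0. In the 13 differentiated tumors it ran from 5.50 through 5.98 to 6.77, and 12 of 13 lay below the lowest undifferentiated tumor. The difference of 0.50 (interval 0.16 to 0.84) had an adjusted p of 0.0705 in limma. The 2 genes lie side by side on chromosome 9, their products are closely related, and whether their probes pair with each other's transcripts was not tested.

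RUNX1, the DNA-binding partner of CBFB in blood cell formation, read 7.58 in T9, 9.24 in T57, 7.73 in T73 and 7.31 in T90, with the spot of LM0 left out. The 13 reference differentiated tumors ran from 6.74 through 7.19 to 7.79. T57 lay above every differentiated tumor and the other 3 lay in the upper part of their range. The log2 difference was 0.76 (interval 0.22 to 1.30), with an adjusted p of 0.0833 in limma. With flagged spots kept, so that LM0 entered, the difference was 0.84 and the adjusted p 0.0361, and without T57 it was 0.34 (adjusted p = 0.25).

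GATA1, SPI1 and IKZF1 overlapped between the groups. GATA1, a factor of the erythroid, megakaryocytic and mast cell lines, averaged 10.79 ± 0.76 (SD, n = 5) and 10.27 ± 0.65 (SD, n = 12). SPI1, the myeloid factor PU.1, averaged 9.96 ± 0.79 (SD, n = 5) and 9.52 ± 0.58 (SD, n = 13). IKZF1, the lymphoid factor Ikaros, averaged 8.82 ± 0.68 (SD, n = 5) and 8.56 ± 0.52 (SD, n = 10). Their differences of 0.52 (interval -0.22 to 1.25), 0.44 (-0.24 to 1.13) and 0.26 (-0.39 to 0.90) had adjusted p-values of 0.402, 0.448 and 0.663 in limma.

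Batch bears on these values. Only 2 of 15 slides held tumors of both reference classes. With slide as a fixed block the difference was -0.64 for MITF probe B (adjusted p = 0.603) and 0.42 for STAT5B (adjusted p = 0.257), and neither was called. MITF probe A stood at -0.05 (adjusted p = 0.989) and probe C at -0.52 (adjusted p = 0.503) with that block. With the scan session as a block, MITF probe B stood at -1.22 (adjusted p = 0.079) and STAT5B at 0.73 (adjusted p = 0.0359). Within the 3 sessions that held both classes with a kept spot, MITF probe B was lower in undifferentiated tumors in 3 of 3. Its differences ran from -1.61 to -0.64. STAT5B was higher in 4 of 4 sessions, as were STAT5A, RUNX1 and GATA1, which were not called. SPI1 and IKZF1 were higher, and MITF probes A and C lower, in 3 of 4.

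The second comparison took the 33 tumors of predicted class, which share no tumor with the first. MITF probe B was again lower and RUNX1 higher in the undifferentiated tumors. Of the 9 probes, 1 was lower (2.48% of all probes) and 1 higher (3.09%) at an adjusted p under 0.05, against 5.56% of all probes in either direction, and 0 of 9 passed the stricter rule (0.963% of all probes). At an unadjusted p under 0.05 in limma, 4 of 9 probes passed, the 3 MITF probes and RUNX1, beside 19.2% of all probes. The 3 MITF probes read the same gene and varied together, so they do not count as separate genes.

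In the 7 predicted undifferentiated tumors, MITF probe B ran from 7.38 through a median of 8.88 to 9.53, and in 24 predicted differentiated tumors from 8.59 through 10.04 to 11.15. All 7 lay below the differentiated median, 2 of them, T77 and T114, below every differentiated tumor. The difference was -1.11 (interval -1.77 to -0.46, adjusted p = 0.0346, limma), with -0.92 for probe A (adjusted p = 0.0902) and -1.03 for probe C (adjusted p = 0.0742). Without T77 and T114 the difference for probe B was -0.63 (adjusted p = 0.441), and leaving out T77, T80, T114 or T132 alone raised the adjusted p to 0.0531 or more. With slide as a fixed block it was -0.44 (adjusted p = 0.699).

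RUNX1 ran from 6.82 through 7.82 to 9.87 in the 7 predicted undifferentiated tumors and from 6.46 through 7.20 to 8.84 in the 26 predicted differentiated tumors. T114 was the highest of all tumors and T77 the lowest of the 7, and 6 of 7 lay above the differentiated median. The level was 1.86-fold higher in undifferentiated tumors (log2 difference 0.90, interval 0.38 to 1.41, adjusted p = 0.0299, limma). Without T114 the difference was 0.60 (adjusted p = 0.176), without T77 and T114 it was 0.80 (adjusted p = 0.0611), and leaving out T49 or T115 alone also ended the call. With the scan session as a block the difference was 0.82 (adjusted p = 0.0648), and with slide as a fixed block it was 1.04 (adjusted p = 0.0435).

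The other genes did not pass the test in predicted tumors. STAT5B averaged 7.87 ± 0.39 (SD, n = 7) and 7.77 ± 0.44 (SD, n = 26), a difference of 0.10 with an interval from -0.27 to 0.47. STAT5A averaged 5.84 ± 0.41 (SD, n = 7) and 6.01 ± 0.40 (SD, n = 26), a difference of -0.16 (interval -0.51 to 0.19). GATA1 differed by -0.58 (interval -1.39 to 0.22), IKZF1 by -0.35 (-1.11 to 0.40) and SPI1 by 0.21 (-0.45 to 0.87). For none of these 5 did the adjusted p in limma fall under 0.470. T114 and T77 were the lowest predicted undifferentiated tumors for GATA1 (7.97 and 8.37) and for IKZF1 (6.97 and 7.25).

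Whether the class difference was itself different in reference and predicted tumors was tested with an interaction term in limma. At an adjusted p under 0.05, 0 of 9 probes differed (0.0505% of all probes), and at an unadjusted p under 0.05, 2 of 9 did, beside 13.5% of all probes: STAT5A, whose reference difference exceeded the predicted one by 0.66 (interval 0.15 to 1.17, adjusted p = 0.247), and STAT5B, by 0.61 (0.07 to 1.14, adjusted p = 0.307). For GATA1, which was higher on average in reference and lower in predicted undifferentiated tumors, the difference of the differences was 1.10 (interval -0.08 to 2.27, adjusted p = 0.405).

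**Figure D2:**
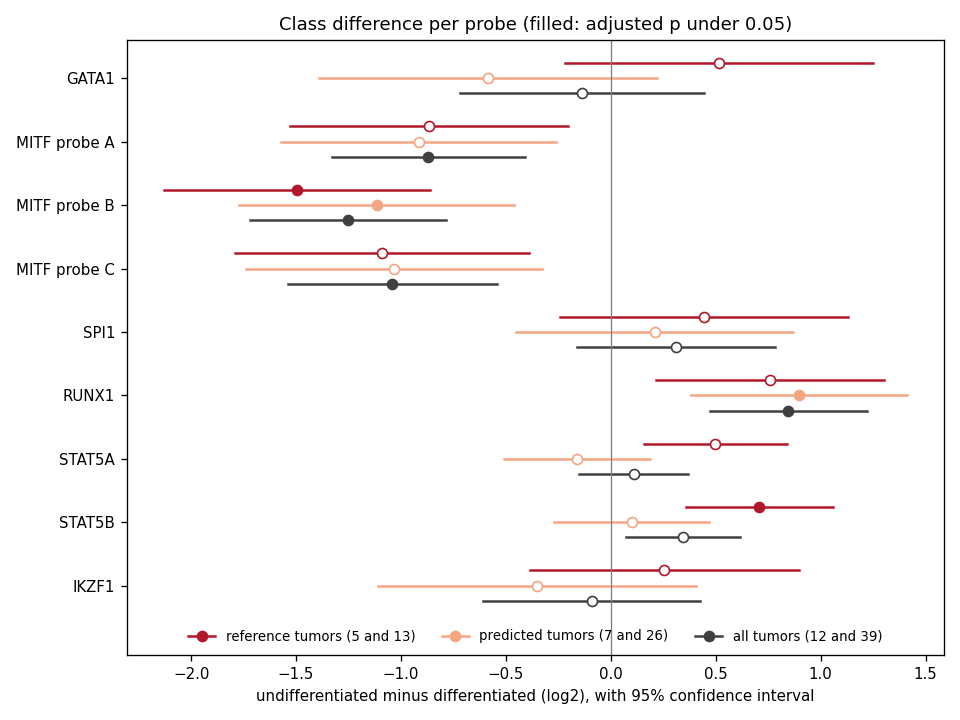
Undifferentiated minus differentiated level on the log2 scale (horizontal axis) with its 95% confidence interval for the 9 probes (vertical axis), in reference tumors, predicted tumors and all 51 tumors; filled points have an adjusted p under 0.05. MITF probe B stands at -1.49, -1.11 and -1.25, RUNX1 at 0.76, 0.90 and 0.85, and STAT5B at 0.71, 0.10 and 0.34.

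Over all 51 tumors, 12 undifferentiated and 39 differentiated, all 3 MITF probes were lower and RUNX1 was higher. This comparison holds the tumors of both earlier ones and is no independent repeat of them. Of the 9 probes, 3 were lower (6.85% of all probes) and 1 higher (7.39%) at an adjusted p under 0.05, and MITF probes B and C passed the stricter rule (2.35% of all probes). The 3 lower probes all belong to MITF and are not separate genes. The log2 differences in limma were -0.87 ± 0.23 (SE) for MITF probe A (adjusted p = 0.00653), -1.25 ± 0.23 for probe B (adjusted p = 0.000112), -1.04 ± 0.25 for probe C (adjusted p = 0.00252) and 0.85 ± 0.19 for RUNX1 (adjusted p = 0.000993). STAT5B differed by 0.34 (interval 0.07 to 0.61, adjusted p = 0.0785), SPI1 by 0.31 (-0.16 to 0.78), STAT5A by 0.11 (-0.15 to 0.37), GATA1 by -0.14 (-0.72 to 0.44) and IKZF1 by -0.09 (-0.61 to 0.42).

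Among 10 slides with both classes, MITF probe B was lower in undifferentiated tumors on 8 of 9 with a kept spot, and RUNX1 was higher on 8 of 9. With slide as a fixed block, probes B and C and RUNX1 had an adjusted p under 0.05, as had STAT5B (0.37, adjusted p = 0.0268), and probe A stood at -0.64 (adjusted p = 0.0929). Without T77 and T114, probe A stood at -0.61 (adjusted p = 0.081), probe B at -1.001 (adjusted p = 0.00289), probe C at -0.80 (adjusted p = 0.0296) and RUNX1 at 0.78 (adjusted p = 0.001).

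Markers of other cells moved with some of these genes. The mean standardized level of the 14 mast cell markers had a Pearson r of 0.834 with MITF probe A (n = 48), 0.843 with IKZF1 (n = 43) and 0.739 with GATA1 (n = 50), and -0.270 with RUNX1 (n = 50). Without T77 and T114 these values were 0.769, 0.799, 0.641 and -0.143. These are descriptions, over arrays that share slides. With the mast cell markers as a covariate, the reference difference was -1.08 for MITF probe A (adjusted p = 0.000555), -1.62 for probe B (adjusted p = 1.48e-05) and -1.39 for probe C (adjusted p = 5.19e-05). In predicted tumors the same covariate left -0.12, -0.56 and -0.47 for probes A, B and C, none of them at an adjusted p under 0.114. Over all 51 tumors it left -0.53, -0.96 and -0.81, each at an adjusted p of 0.00308 or less.

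Among single mast cell markers, MITF probe A had its closest marker in FCER1A (r = 0.803), followed by GRAP2 (0.773) and CMA1 (0.738), and it stood at 0.720 with KIT, whose gene MITF is known to activate. Without T77 and T114, these 4 values were 0.797, 0.690, 0.679 and 0.613. IKZF1 was closest to GRAP2 (0.750) and MS4A2 (0.733), and GATA1 to GRAP2 (0.684) and the vesicular amine transporter SLC18A2 (0.679). Without these tumors, IKZF1 stood at 0.677 and 0.645 with the same markers and GATA1 at 0.57 with both of its markers. SPI1 and STAT5B were closest to the granule proteoglycan SRGN (0.678 and 0.654), which many blood cells contain. RUNX1 stood at 0.506 with SRGN and between -0.493 and 0.314 with the other 13 markers.

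**Figure D3:**
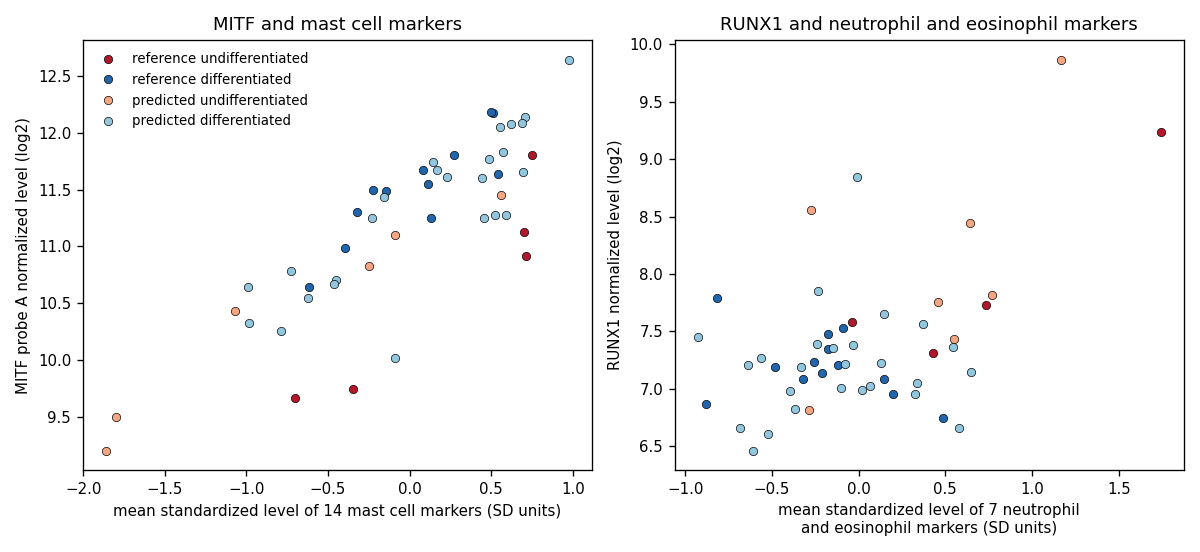
Left, MITF probe A level on the log2 scale against the mean standardized level of 14 mast cell markers; right, RUNX1 level against that of 7 neutrophil and eosinophil markers. Points are tumors, colored by group. The Pearson r is 0.834 on the left, where T114 and T77 are the lowest points, and 0.503 on the right, where T114 and T57 are the highest.

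Up to 3 neutrophil and eosinophil markers were higher in undifferentiated MCTs. Of 13 such markers 7 had a probe: 1 of the 7 was higher in reference, 1 in predicted and 3 over all tumors at an adjusted p under 0.05, and 0 were lower. These were CSF3R in reference, S100A9 in predicted, and S100A8, S100A9 and CSF3R over all tumors. How many CSF3R spots were kept after flagged spots were left out is not reported here. Over all named genes, the counts were 674 higher and 511 lower of 11131 in reference, 539 and 302 of 11136 in predicted, and 1248 and 885 of 11137 over all tumors. On average LTF stood on the other side in reference tumors (difference -1.88, adjusted p = 0.234, limma) and IL5RA in predicted tumors (-1.17, adjusted p = 0.164), neither past the threshold. In reference tumors their summed signal ran from 12.29 through 17.94 to 18.03 on the log2 scale in the undifferentiated and from 10.78 through 12.87 to 16.34 in the differentiated group. The sum is of linear signals, so the brightest spots weigh most in it, and S100A8 and S100A9 reached 17.64 and 17.57 in their brightest tumors. In predicted tumors it ran from 12.31 through 17.46 to 18.58 and from 10.71 through 13.07 to 18.10. Among them, S100A8, S100A9, LTF and IL5RA were well above background on all 51 arrays, and CSF3R and CAMP on 47 each.

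RUNX1, which granulocytes also express, had an r of 0.503 with these markers over all tumors, of 0.411 without T77 and T114 and of 0.02 within differentiated tumors. MITF probe A had an r of -0.498 over all tumors and of -0.473 within differentiated tumors. This was not particular to these markers: over all tumors its r was -0.511 with endothelial and -0.482 with skeletal muscle markers. With the neutrophil and eosinophil markers as a covariate, the difference of RUNX1 over all tumors was 0.60 (adjusted p = 0.056, limma). Those of MITF probes A, B and C were -0.59 (adjusted p = 0.109), -0.98 (adjusted p = 0.00685) and -0.69 (adjusted p = 0.0823). In reference tumors STAT5B stood at 0.62 (adjusted p = 0.0437) and MITF probe B at -1.32 (adjusted p = 0.0189), and in predicted tumors 0 of 9 probes were called in limma with it. Beyond these fits, the part of granulocytes in the results was not tested.

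Melanocytes are the other skin cells known for MITF, and 6 of their markers had a probe. TYR was well above background on 10 of 51 arrays, DCT on 18, TYRP1 on 20 and MLANA on 28, while SOX10 was so on 43 and SLC45A2 on 48. The 6 markers together had an r of -0.196 with MITF probe A. Of the 6, 0 differed between classes at an adjusted p under 0.05 in any of the 3 comparisons. Of all named genes, 674 were higher and 511 lower of 11131 in reference tumors. These counts were 539 and 302 of 11136 in predicted tumors, and 1248 and 885 of 11137 over all tumors. With only 6 markers, 0 calls does not set them apart from other genes. At an unadjusted p under 0.05, DCT alone was lower in reference undifferentiated tumors (p = 0.0426, limma) and TYR alone was higher in predicted undifferentiated tumors (p = 0.0414, limma). The erythroid marker SLC4A1 was well above background on 0 of 51 arrays, while EPOR, the erythropoietin receptor, and ITGA2B were so on 51 and GP1BA on 50. GATA1 had an r of 0.092 with the 5 erythroid and megakaryocyte markers measured.

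SPI1 had its highest correlations among the marker lists with the 10 macrophage markers (r = 0.553) and the 8 T cell markers (0.424), and of 0.342 with mast cell markers. Keratinocyte markers had a negative r with every factor, from -0.595 for STAT5B to -0.189 for RUNX1. Of the proliferation markers, 10 had a probe. In each of the 3 comparisons, 9 of these were higher in undifferentiated tumors at an adjusted p under 0.05 in limma. Named genes higher at that threshold were 674 of 11131 in reference, 539 of 11136 in predicted and 1248 of 11137 over all tumors. Reference classes had been chosen in part by mitotic index and predicted ones from genes that the study places mostly in the cell cycle. The count was thus largely set by how the classes were made. Over all tumors, these markers had an r of 0.577 with RUNX1 and of -0.487 with MITF probe A. Within differentiated tumors, the values were 0.01 and -0.08.

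The factors also varied together from tumor to tumor. Pearson and Spearman correlations were computed for the 21 pairs of the 7 genes by their brightest probe, with two-sided permutation tests of 100000 resamples and Benjamini-Hochberg adjustment over the 21 pairs. At an adjusted p under 0.05 for Pearson's r, 14 pairs were positive and 1 was negative. Within the differentiated tumors, 15 of 21 pairs were positive and 0 negative at that threshold. The permutations treated arrays as exchangeable, although arrays share slides and classes. How many pairs of other genes pass was not counted, so these counts cannot be read as a trait of the factors.

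GATA1 and IKZF1 were the closest pair, with r = 0.867 and rho = 0.821 over 42 tumors (permutation, p = 1e-05 for both, the smallest these resamples can give, and adjusted p = 1e-04). The r was 0.849 within differentiated and 0.905 within undifferentiated tumors (0.715 in 9 without T77 and T114). It was 0.864 after slide means were removed and 0.828 without T114 and T77, the 2 tumors farthest from the median of GATA1. MITF and IKZF1 followed with r = 0.745 and rho = 0.745 over 40 tumors (permutation, adjusted p = 1e-04 for both), and with 0.655 without T114 and T77. GATA1 and MITF stood at r = 0.544 and rho = 0.521 over 47 tumors (permutation, adjusted p = 0.00016 and 0.00069), and at r = 0.375 without T114 and T77.

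SPI1 was positively related to IKZF1 (r = 0.599), GATA1 (0.559) and STAT5B (0.537), each at an adjusted p of 0.00015 in the permutation test, and its r of 0.169 with MITF had an adjusted p of 0.31. STAT5A and STAT5B stood at r = 0.473 and rho = 0.529 over 51 tumors (permutation, adjusted p = 0.00082 and 0.00042). The r of STAT5B and MITF was 0.038 over all tumors and 0.547 within the 37 differentiated tumors. Within the 11 undifferentiated tumors it was -0.387 (-0.607 in 9 without T77 and T114). Whether r differs between the classes was not tested.

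RUNX1 had 2 positive pairs past the threshold. It was positively related to STAT5B (r = 0.512, rho = 0.360, permutation, adjusted p = 0.00056 and 0.017) and to SPI1 (r = 0.422, rho = 0.441, adjusted p = 0.0045 and 0.0027). Without T114 and T57, its r with STAT5B was 0.285. Its relation with MITF was negative by Pearson's r, -0.438 (permutation, adjusted p = 0.0045), and did not pass by Spearman's rho, -0.233 (adjusted p = 0.14). Without T77 and T114, Pearson's r was -0.367. Within differentiated tumors the r of RUNX1 and MITF was -0.170 (adjusted p = 0.33).

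**Figure D4:**
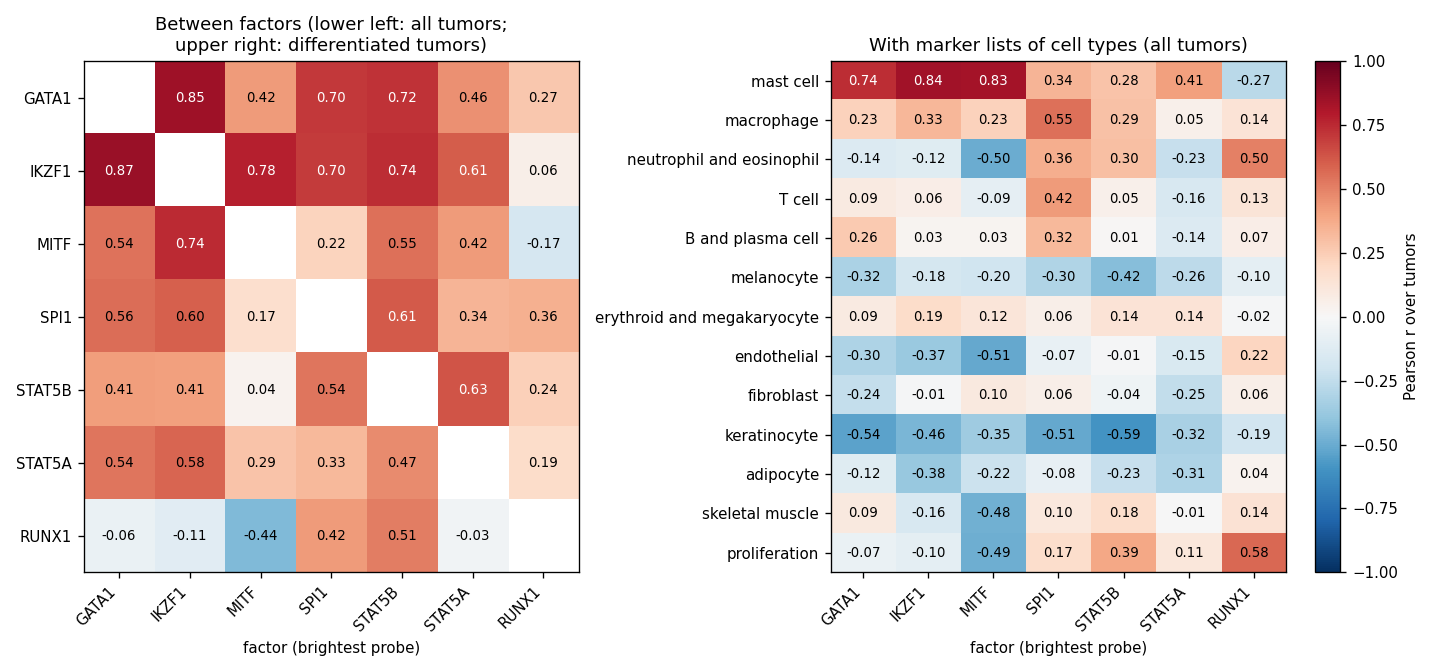
Pearson r over tumors (color and numbers) between the 7 factors by their brightest probe, left, with all tumors in the lower left and differentiated tumors in the upper right triangle, and between each factor and the mean standardized level of 13 marker lists over all tumors, right. GATA1 and IKZF1 reach 0.867, and the mast cell row holds 0.739, 0.843 and 0.834 for GATA1, IKZF1 and MITF.

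The 3 MITF probes measured much the same variation: r was 0.959 between A and B (n = 45), 0.959 between B and C (n = 47) and 0.937 between A and C (n = 47). Over all tumors the levels spanned 3.44 log2 units for probe A, 3.77 for B and 3.85 for C. GATA1 spanned 4.22 units, SPI1 3.46, RUNX1 3.41, IKZF1 2.75, STAT5B 2.35 and STAT5A 1.71.

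The genes closest to each factor were sought among 9544 other genes with a named, measured probe, by Pearson r over tumors. GATA1 was closest to CSK (0.877), RGS14 (0.844) and FERMT3 (0.844), and IKZF1 to ENTPD6 (0.871), TGFB1 (0.867) and CSK (0.866). MITF probe A was closest to REV3L (0.898, n = 47), B4GALNT1 (0.890, n = 47) and SERPINB1 (0.869, n = 29). SPI1 was closest to LRRC25 (0.860), NCF1 (0.848), a subunit of the phagocyte oxidase, and GMIP (0.842). STAT5B was closest to ERO1B (0.824), PGPEP1 (0.784) and NUMB (0.774), and STAT5A to ZCCHC8 (0.766), CLK2 (0.738) and CCDC130 (0.724). RUNX1 was closest to PICALM (0.785), STK38L (0.778) and PGS1 (0.765), whose r within differentiated tumors was 0.646, 0.333 and 0.430, whereas the r of the other 6 factors with their closest genes stayed at 0.727 or more there. Without T77 and T114, each of these 21 values was 0.672 or more.

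Partners and relatives of the factors were read from a list of 40 genes, 23 of them with a probe. In reference tumors 2 were higher and 0 lower at an adjusted p under 0.05, beside 674 higher and 511 lower of 11131 named genes. CBFB, the non-DNA-binding partner of RUNX1, was higher by 1.28 ± 0.14 (SE, adjusted p = 5.36e-05, limma) and was the only one of the 23 past the stricter rule. NFE2, an erythroid and megakaryocytic factor, was higher by 1.49 ± 0.42 (adjusted p = 0.0392, limma), and ETV6, next by p, stood at 0.59 ± 0.18 (adjusted p = 0.0567). The median difference of the 23 was 0.04 and that of all named genes 0.03.

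Over all 51 tumors, 1 of the 23 was higher and 2 were lower, beside 1248 higher and 885 lower of 11137 named genes. CBFB was higher by 0.78 ± 0.11 (SE, adjusted p = 8.29e-07, limma). IKZF2, the relative of IKZF1 called Helios, was lower by 1.42 on the log2 scale (difference -1.42 ± 0.32, adjusted p = 0.00123) and FLI1, an ETS factor, was lower (difference -0.49 ± 0.17, adjusted p = 0.0476). In predicted tumors the same 3 were past the threshold, IKZF2 at -1.69, FLI1 at -0.87 and CBFB at 0.47. In reference tumors IKZF2 stood at -0.93 ± 0.64 (adjusted p = 0.411, limma) and FLI1 at 0.09 ± 0.245 (adjusted p = 0.864).

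The path from KIT to STAT5 was read from a list of 38 genes, 30 of them with a probe. In reference tumors, 1 was higher and 1 lower, beside 674 higher and 511 lower of 11131 named genes. IL2RG, the common cytokine receptor chain, was higher by 1.13 ± 0.30 (SE, adjusted p = 0.0261, limma), and JAK1, a kinase of cytokine receptors, was lower (difference -0.43 ± 0.10, adjusted p = 0.0183). SOCS1, an inhibitor of these kinases, was next by p at 0.33 ± 0.15 (adjusted p = 0.189). The median difference of the 30 was 0.03.

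Over all 51 tumors the same 2 genes were past the threshold, beside 1248 higher and 885 lower of 11137 named genes, IL2RG at 0.93 ± 0.20 (SE, adjusted p = 0.000896, limma) and JAK1 at -0.34 ± 0.07 (adjusted p = 0.000894). PTPN6, the phosphatase that dampens KIT, was next by p at -0.59 ± 0.22 (adjusted p = 0.0693). KIT itself stood at -0.76 ± 0.34 (adjusted p = 0.134). In predicted tumors, 1 was higher, the adaptor SHC1 (0.41 ± 0.12, adjusted p = 0.0408), and 1 lower, the regulatory subunit PIK3R1 (-0.65 ± 0.17, adjusted p = 0.0234), beside 539 higher and 302 lower of 11136 named genes, and IL2RG and JAK1 were not past the threshold.

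**Figure D5:**
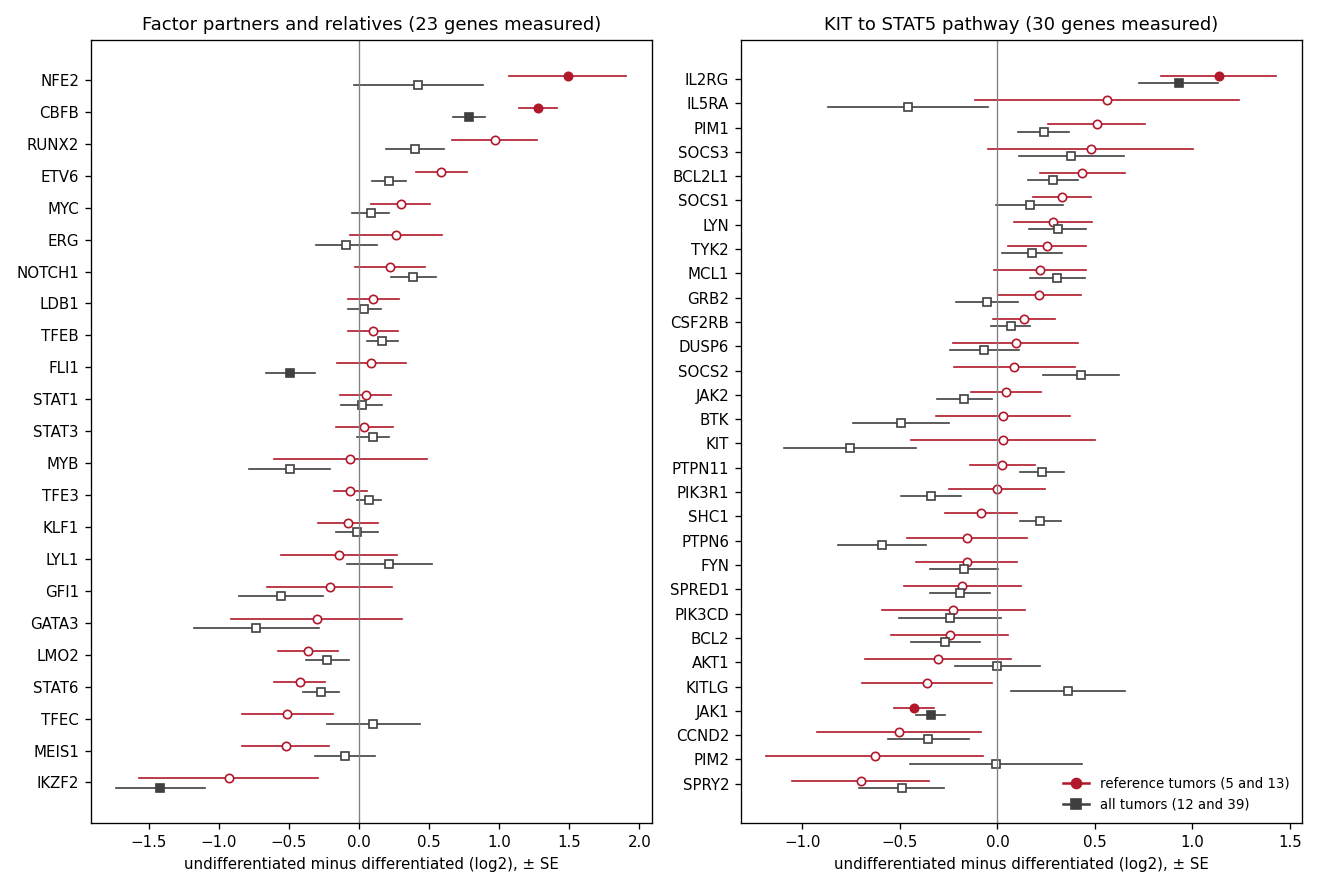
Undifferentiated minus differentiated level on the log2 scale ± SE (horizontal axes) for the 23 measured partners and relatives of the factors, left, and the 30 measured genes from KIT to STAT5, right; circles are reference tumors, squares all 51 tumors, and filled symbols have an adjusted p under 0.05. CBFB stands at 1.28 and 0.78 and JAK1 at -0.43 and -0.34, and filled symbols stand for 2 reference and 3 all-tumor partners and for 2 pathway genes in each comparison.

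Sex, age and breed were compared with the class held in the model or, for breed, within differentiated tumors. Between 30 female and 19 male dogs, 0 of 9 probes differed at an adjusted p under 0.05 in limma (0.0642% of all probes), and 1 of 9 did at an unadjusted p under 0.05 (4.45% of all probes), MITF probe C (difference female minus male -0.50, interval -0.93 to -0.06). For age, 0 of 9 probes had an adjusted p under 0.05 (0% of all probes) or an unadjusted p under 0.05 (2.31% of all probes), with slopes between -0.04 and 0.02 log2 units per year. Between 7 boxers and 7 Labrador retrievers, 0 of 9 probes differed at an adjusted p under 0.05 (0.0758% of all probes), and MITF probe A was at an unadjusted p of 0.0481 in limma (boxer mean 11.15 ± 0.58 against 11.68 ± 0.32, SD, n = 7 each). At an unadjusted p under 0.05, 1 of 9 stood beside 6.77% of all probes.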

How the data were processed

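RNA of 51 canine MCTs was amplified, labeled with Cy3 and hybridized, 1 tumor per array, to the Agilent Canine V2 4x44k array. Per the file headers, the authors extracted the scans with Feature Extraction 9.5.1, and the deposited processed signal is an intensity, background-subtracted within each array and not normalized between arrays. The authors' quantile-normalized table, also an intensity, served as an alternative. The genome build is not given in the sources used here.

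Log2 processed signals were brought to a common distribution by quantile normalization over the 51 arrays. Flagged outlier spots, between 718 and 3291 on an array, were left out, and repeated spots of the same probe were averaged. Of 43803 non-control spots, 15376 were named by the file and 3200 through a gene ID and RefSeq. Between 59.4% and 74.8% of an array's spots were well above background. The number of arrays limits the precision. Without a block, the p-values measure the spread between arrays, which holds differences between slides and scan sessions along with those between tumors.

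Classes were compared with limma 3.58.1 in R 4.3.3, which took the place of the study's SAM program, with statmod 1.5.0. Figures used matplotlib 3.10.9. On simulated data of the reference comparison (43484 probes, 200 changed 3-fold), 172 changed and 16 unchanged probes had an adjusted p under 0.05, and 0 did without change. The simulated noise was independent between arrays, with no slide or session effect and no dropped spots. Changed probes were drawn from the less variable ones above background. The simulation therefore cannot give the error rate on the real arrays, which share slides and sessions.

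The 10 genes and the lists were chosen with earlier results of these data known. Named are all their probes, the brightest probe of a gene being used for correlations, the 3 genes nearest to each by r and, from 2 lists, those called and the 3 with the smallest p in the reference and the all-tumor comparison. For the nearest genes a kept spot on at least 50% of arrays was asked for after the values were seen. Alternatives were other normalizations and background correction, flags kept, a filter on dim probes, slide or scan session as a block, sex or age as a covariate, the methods' t-test and leaving out tumors; marker scores as covariates, spot-level flags alone and leaving out T77 and T114 together were chosen after seeing the data. Some single marker genes are not reported here.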

Additional observations from a re-analysis of the deposited data

How the results depend on the processing

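Of the 9 probes, 2 were called in reference tumors, and 0 were with slide as a fixed block, 1 with scan session, 6 by the methods' t-test without adjustment, 5 with the mast cell marker score as a covariate and 2 to 5 when each tumor was left out in turn (5 without T90). In predicted tumors 2 were called, and 1 was with slide as a fixed or as a random block, 0 with scan session, with age, with either marker score and without T77 and T114, 4 by the unadjusted t-test and 0 to 2 with tumors left out (0 without T114). Over all tumors 4 were called, and 1 with the neutrophil and eosinophil score. The strict count over the array was 783 in reference tumors, with 410 after normexp, 58 with slide, 303 with session, 1993 by the unadjusted t-test, 1476 with the neutrophil and eosinophil score and 518 (without LM0) to 1111 with tumors left out. It was 1023 over all tumors and 429 after normexp. In predicted tumors it was 420, with 203 after normexp, 72 with slide, 151 with session, 243 with age, 1073 by the unadjusted t-test, 133 with the neutrophil and eosinophil score, 205 without T77 and T114 and 205 (without T114) to 513 with tumors left out. Signs turned only in values that had not passed the test. In reference tumors these were IKZF1 in the authors' table (-0.30) and SPI1 with the neutrophil and eosinophil score (-0.0292). Over all tumors they were IKZF1 with slide (0.10), session (0.0853), the mast cell score (0.19), the neutrophil and eosinophil score (0.00601) and without T77 and T114 (0.23), and GATA1 with the mast cell score (0.14) and without T77 and T114 (0.27), and with tumors left out IKZF1 ran from -0.19 to 0.0654 and GATA1 from -0.26 to 0.0660. In predicted tumors they were IKZF1 in the authors' table (0.0412), with slide (0.17), the mast cell score (0.39) and without T77 and T114 (0.25), GATA1 with slide (0.14), the mast cell score (0.0144) and without T77 and T114 (0.0712), STAT5A with the neutrophil and eosinophil score (0.00606), and STAT5B with sex (-0.0452) and, with tumors left out, from -0.0175 to 0.17. In differentiated tumors alone the sex difference of RUNX1 was 0.0502 and the age slopes of MITF probe A and RUNX1 were -0.0207 and 0.0111, with -0.00625 for probe A in the authors' table, and the breed difference of MITF probe C was 0.0259 with slide as a random block. The r of RUNX1 turned to 0.0183, 0.0763 and 0.19 with STAT5A and to 0.15, 0.0282 and 0.0601 with IKZF1 in the authors' table, with slide means removed and in differentiated tumors, and to 0.27 with GATA1 in the last. The cause of these shifts was not tested. No paired analysis was possible because each dog gave 1 tumor and the tumor numbers are shared by no groups. Marker scores as covariates, spot-level flags alone, correlations in differentiated tumors and leaving out T77 and T114 were chosen after seeing the data. The number of arrays, 5 in the smallest group, limits the precision.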

Other observations

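Among the 14 measured mast cell markers, only the granule proteoglycan SRGN was called in reference tumors, higher in undifferentiated MCTs (log2 difference 1.23, adjusted p = 0.00306, limma). Over all 51 tumors SRGN was higher (0.62, adjusted p = 0.0417) and VWA5A lower (-0.89, adjusted p = 0.0263). In predicted tumors only VWA5A was called (-1.23, adjusted p = 0.0412), and SRGN stood at 0.24 (adjusted p = 0.738). Of all named genes, 674 were higher and 511 lower of 11131 in reference tumors. These counts were 1248 and 885 of 11137 over all tumors, and 539 and 302 of 11136 in predicted tumors. The share of markers called was no higher than that of named genes in any comparison.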
